A study of Mus musculus with 32 samples.

Results

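Lcn2, Saa3, Hp, Lbp and Agt are 5 genes of the acute-phase response that were followed across 32 RNA sequencing libraries of BV-2, a mouse microglial cell line that grows without limit. They are 5 of the 45706 genes in the deposited table and were found by gene name. They were picked with results of these data in view, because they stood out when lipopolysaccharide (LPS, a sugar-lipid of the outer bacterial membrane to which microglia respond) was compared with vehicle (VEH) in cells that received the scramble mimic. Their values in that comparison are therefore given as a description and without a test. The study asked what 3 microRNAs do in resting and in activated microglia. All cells were wild type and all received a synthetic RNA: a scramble mimic as the control, or a short duplex that supplies mature miR-146a-5p, miR-7a-5p or miR-29a-3p. LPS was given at 10 ng/ml for 24 h. The 8 groups of 4 libraries are named by treatment and transfection. Those under vehicle are VEH_scramble, VEH_miR-146a, VEH_miR-29a and VEH_miR-7a, and those under LPS are LPS_scramble, LPS_miR-146a, LPS_miR-29a and LPS_miR-7a. The labels place LPS before transfection and the study's methods place transfection first, so the order cannot be told from the sources. The study counts replicates as independent experiments, and all of them come from the same cell line.

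Acute-phase proteins are secreted when tissue senses infection or injury, mainly by the liver but also by macrophages and microglia. Bacterial products and the cytokines IL-1 and IL-6 switch on their genes through the transcription factors NF-kappaB, C/EBP and STAT3. Lcn2 encodes lipocalin-2, which captures bacterial iron carriers. Saa3 encodes the serum amyloid A made outside the liver in mice, Hp encodes haptoglobin, which binds free haemoglobin, and Lbp encodes the protein that hands LPS to CD14 and the receptor TLR4. Agt encodes angiotensinogen, the precursor from which renin and ACE cut the angiotensins, made in the brain mainly by astrocytes.

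The mature microRNAs that the mimics supply are shown because their seeds (bases 2 to 8, in capitals) decide which transcripts can pair with them. RefSeq places miR-7a-5p at chr13:58392841-58392863 (minus strand) and chr7:78888295-78888317 (plus strand), miR-29a-3p at chr6:31062673-31062694 (minus strand) and miR-146a-5p at chr11:43374435-43374456 (minus strand), all in build GRCm38.p6.
mmu-miR-7a-5p: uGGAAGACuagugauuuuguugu
mmu-miR-29a-3p: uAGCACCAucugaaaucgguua
mmu-miR-146a-5p: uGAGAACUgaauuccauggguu
The seeds differ from each other. The match to the whole seed (GTCTTCC for miR-7a, TGGTGCT for miR-29a and AGTTCTC for miR-146a) was in the 3′ UTR of none of the 5 genes (transcript 201 of each, 0 matches). Among 19121 mouse 3′ UTRs a 7-base site was present in 19.3% for miR-7a, 13.5% for miR-29a and 14.8% for miR-146a. The shorter match to bases 2 to 7 followed by an A was found only in Lbp, with 2 sites for miR-7a that start 393 and 650 bases into its 902-base 3′ UTR, the first base after the stop codon being 1. They are shown with the 6 matched bases in capitals.
Lbp site 1: tctttattgcTCTTCCatctggtctga
Lbp site 2: cacaggtatcTCTTCCatggttgctgt
The 6 bases alone also matched miR-7a at base 7 of the Saa3 3′ UTR and miR-29a at base 319 of the Lbp 3′ UTR. A match describes letters and is not evidence of binding.

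Promoters from RefSeq (GRCm38.p6) were matched for 3 of the 5 genes and are shown because Lcn2 and Saa3 moved together while Agt moved the other way. The table used has no entry for Hp or Lbp. Each run starts 250 bases before the RefSeq start and ends where transcript 201 begins. The windows, all on the minus strand, are chr2:32387798-32387989 for Lcn2, chr7:46715701-46715926 for Saa3 and chr8:124569707-124569956 for Agt. Capitals mark the motifs found.
Lcn2: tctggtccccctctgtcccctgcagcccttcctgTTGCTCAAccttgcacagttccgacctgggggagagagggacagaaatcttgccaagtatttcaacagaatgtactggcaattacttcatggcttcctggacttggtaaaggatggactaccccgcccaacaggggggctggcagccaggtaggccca
Saa3: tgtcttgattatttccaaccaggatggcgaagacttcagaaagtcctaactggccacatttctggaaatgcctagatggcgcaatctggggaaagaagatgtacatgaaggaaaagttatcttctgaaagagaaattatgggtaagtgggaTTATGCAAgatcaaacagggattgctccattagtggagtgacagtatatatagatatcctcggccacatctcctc
Agt: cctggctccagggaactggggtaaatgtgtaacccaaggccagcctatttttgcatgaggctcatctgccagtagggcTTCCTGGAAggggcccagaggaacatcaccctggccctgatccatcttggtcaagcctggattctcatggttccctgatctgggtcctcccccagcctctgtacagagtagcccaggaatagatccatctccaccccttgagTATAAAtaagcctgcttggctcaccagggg
Searched on both strands of the 300-base windows, the C/EBP motif TTGCNNAA began at -216 in Lcn2 and at -99 in Saa3, counted from the RefSeq start, and 10.8% of 32851 promoters hold it. The STAT motif TTCNNNGAA began at -172 in Agt (8.30% of promoters). The TATA motif TATAAA began at -30 in Agt (13.6% of promoters). The NF-kappaB motif was in none of the 3 windows (8.46% of promoters), which says only that these letters are not there.

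Values are given as CPM (a library's counts scaled to a common total), after the decimal marks that the deposited table had lost were put back. For example, Saa3 in replicate 3 of LPS_miR-29a is deposited as 25793997 and was read as 25794. Of the 160 values of the 5 genes, 141 were above 0 and 23 of these had lost decimals, 14 of them in Saa3. Library totals ranged from 1161880 to 20647439 counts (median 6964262). Replicates 2 to 4 of VEH_miR-7a stood apart: small structural RNA genes took 35.9% to 40.2% of their counts, against 2.59% to 19.4% in the other 29 libraries, and they held 1161880 to 2403860 counts. Without these 3, VEH_miR-7a is a single library, so values without them are given below as a description, with no test. The labels, like the study's methods, call the line a glioblastoma line, while the study uses BV-2 as microglia, and the labels add mouse ages, which a cell line does not have. Of 15 microglial markers, 3 (Csf1r, C1qa and Cx3cr1) had a median under 1 CPM over the 32 libraries. Cd68, Ptprc, Trem2 and Tyrobp were abundant, and the sum of the 15 ran from 2162 to 5085 CPM per library. In LPS_miR-29a that sum was 2162 to 2947 CPM, against 2677 to 3415 CPM in LPS_scramble, and its part in the differences given here was not tested. Markers of hepatocytes, the main source of these proteins in the body, all had a median under 1 CPM over the 32 libraries (9 of 9, summed level 0 to 3.06 CPM). The same held for 7 of 9 glioma and oligodendrocyte-lineage markers, 8 of 10 neutrophil markers and 8 of 9 astrocyte markers, Aldoc being the exception among the last. Aldoc, an astrocyte marker, had a median of 136 CPM over the vehicle and 82.3 CPM over the LPS libraries, and it fell with LPS, like Agt, in cells with miR-29a (log2 -1.29) and miR-7a (-0.69). Its difference was -0.41 with miR-146a, and under LPS it was lower with miR-29a than with scramble (-0.76). The neutrophil marker Cxcr2 had medians of 7.5 and 1.43 CPM under vehicle and LPS. Trem2 and Tyrobp fell with LPS with all 3 mimics (-1.70 to -0.88 and -1.28 to -0.60). They are 2 of 12 microglial markers fitted there, and Tmem119 (0.84 to 2.50) and Aif1 (0.38 to 0.59) were higher with all 3. The median log2 difference of the 12 was -0.40 in miR-29a cells, -0.21 in miR-7a cells and -0.03 in miR-146a cells. In that order limma called 5, 2 and 3 of them lower and 0, 1 and 0 higher. No gene was left out there for a low level in 1 group. The part of these markers in the results was not tested. A gene made by fewer cells and a gene made at a lower level in each cell cannot be told apart in such libraries.

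Lcn2 (ENSMUSG00000026822, chr2:32384633-32388252, minus strand, GRCm38, 6 exons) was at or near 0 counts in resting cells and abundant in activated ones. A count of 0 over the 4 VEH_scramble libraries allows up to 0.134 CPM. Under vehicle 15 of 16 libraries held 0 counts of Lcn2, and replicate 1 of VEH_miR-7a held 1 (0.181 CPM). Under LPS the 4 scramble libraries read 102, 89.0, 124 and 77.1 CPM (98.2 ± 20.2, SD, n = 4). With miR-7a they read 69.1, 70.9, 82.8 and 80.4 CPM (75.8 ± 6.82, SD, n = 4). Libraries with LPS and miR-29a were the highest for this iron-carrier scavenger, and their range lay apart from every other group. They read 414, 268, 274 and 174 CPM (283 ± 99.2, SD, n = 4). With miR-146a the values were 69.0, 48.0, 68.0 and 42.2 CPM (56.8 ± 13.7, SD, n = 4), all below the scramble range and below the miR-7a range.

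Saa3 (ENSMUSG00000040026, chr7:46711998-46715700, minus strand, 4 exons) was the most abundant of the 5 under LPS and low but present under vehicle. The vehicle libraries read 1.44, 1.42, 3.52 and 1.95 CPM with scramble and 3.44, 5.01, 1.23 and 5.25 CPM with miR-7a. They read 2.53, 2.61, 4.00 and 2.21 CPM with miR-29a and 3.04, 5.06, 3.15 and 1.67 CPM with miR-146a, so all vehicle groups overlapped. Under LPS the scramble libraries read 858, 642, 1003 and 634 CPM (785 ± 179, SD, n = 4). The miR-7a libraries lay below them without overlap, at 325, 287, 328 and 430 CPM (343 ± 61.4, SD, n = 4). The miR-29a libraries lay above the scramble libraries without overlap, at 2518, 1228, 1481 and 1147 CPM (1593 ± 633, SD, n = 4). With miR-146a the values were 1159, 720, 1008 and 738 CPM (906 ± 214, SD, n = 4), which overlapped both scramble and miR-29a. The liver-type relatives Saa1 and Saa2, and the neighbouring family member Saa4, averaged at most 0.379 CPM in every group.

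Hp (ENSMUSG00000031722, chr8:109575128-109579172, minus strand, 5 exons) was low under vehicle, at 4.15, 4.27, 3.52 and 1.27 CPM with scramble and 1.21, 5.06, 1.37 and 0.557 CPM with miR-146a. In VEH_miR-7a replicate 1 read 4.16 CPM, while the shallow replicates 2 to 4 read 0.835, 0 and 0 CPM. With miR-29a the vehicle libraries read 16.2, 7.18, 12.5 and 4.62 CPM, all above the scramble range. LPS libraries of haptoglobin lay above their own vehicle libraries in every transfection. They read 36.3, 20.8, 29.7 and 19.3 CPM with scramble (26.5 ± 7.95, SD, n = 4) and 14.9, 11.8, 11.8 and 21.8 CPM with miR-7a (15.1 ± 4.69, SD, n = 4). With miR-29a they read 236, 107, 147 and 45.2 CPM (134 ± 79.8, SD, n = 4), above every other group but spread over a wide range. With miR-146a they read 40.5, 20.1, 42.9 and 14.2 CPM (29.4 ± 14.4, SD, n = 4), overlapping scramble.

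Lbp (ENSMUSG00000016024, chr2:158306493-158332852, plus strand, 15 exons) had separate ranges in some transfections under both treatments. Under vehicle it read 2.88, 1.99, 3.02 and 2.76 CPM with scramble and 13.7, 15.3, 13 and 7.33 CPM with miR-29a, which did not overlap. It read 5.46, 3.07, 1.58 and 0.836 CPM with miR-146a, around the scramble values. With miR-7a it read 0.362, 0, 0.617 and 0 CPM, from 3 counts in all, below the scramble range. For this LPS carrier the LPS libraries stood closer to the vehicle libraries than for Lcn2 or Saa3. They read 14, 8.14, 13.1 and 4.57 CPM with scramble (9.95 ± 4.41, SD, n = 4) and 2.87, 3.84, 3.48 and 4.29 CPM with miR-7a (3.62 ± 0.599, SD, n = 4). They read 19.7, 17.5, 18.5 and 7.23 CPM with miR-29a (15.7 ± 5.75, SD, n = 4) and 12.6, 7.33, 9.63 and 2.22 CPM with miR-146a (7.94 ± 4.38, SD, n = 4). In the miR-29a and miR-146a cells the vehicle and LPS ranges overlapped.

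Agt (ENSMUSG00000031980, chr8:124556534-124569706, minus strand, 5 exons) was the member that stood high in resting cells. Its vehicle libraries read 31.5, 27, 40.7 and 15.2 CPM with scramble (28.6 ± 10.6, SD, n = 4) and 82.2, 94.6, 106 and 52.2 CPM with miR-29a (83.8 ± 23.3, SD, n = 4), without overlap. They read 7.96, 5.84, 6.79 and 14.4 CPM with miR-7a (8.76 ± 3.89, SD, n = 4), below the scramble range, and 23.1, 16.2, 29.2 and 13.4 CPM with miR-146a (20.5 ± 7.10, SD, n = 4), within it or just under. Every LPS library of angiotensinogen was lower than every vehicle library. The LPS values were 2.15, 0.942, 2.25 and 0.877 CPM with scramble and 0.653, 1.48, 1.32 and 0.715 CPM with miR-7a. They were 3.05, 1.28, 0.804 and 0.623 CPM with miR-29a and 3.86, 2.48, 3.64 and 0.556 CPM with miR-146a, so all 4 LPS groups overlapped. No annotated gene overlaps any of the 5.

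**Figure D1:**
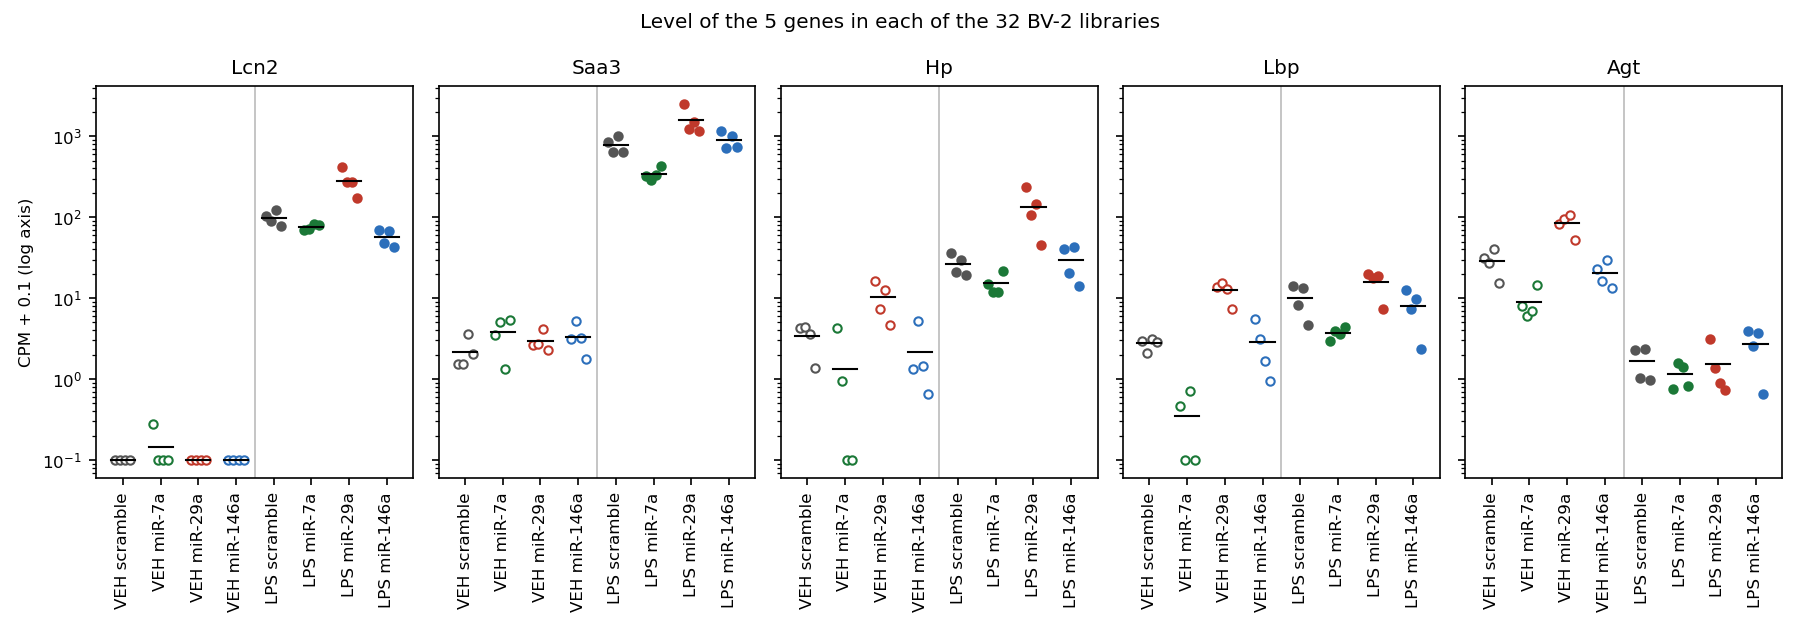
Level of each gene (panels) in each library, as CPM + 0.1 on a log axis, by group on the x axis. Open points are vehicle libraries, filled points LPS libraries and bars group means (n = 4 each), and Lcn2 lies at 0.181 CPM or less under vehicle and between 42.2 and 414 CPM under LPS while Agt lies between 5.84 and 106 CPM under vehicle and at 3.86 CPM or less under LPS.

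Levels of different genes were compared per kilobase of exon. In LPS_scramble, Saa3 had the highest level (301 ± 68.6 CPM per kb), followed by Lcn2 (37.4 ± 7.71), Hp (16.5 ± 4.95), Lbp (2.06 ± 0.913) and Agt (0.823 ± 0.395, SD, n = 4 each). In VEH_scramble the order was led by Agt (15.1 ± 5.61 CPM per kb), followed by Hp (2.06 ± 0.870), Saa3 (0.799 ± 0.379), Lbp (0.551 ± 0.0948) and Lcn2 at 0 (SD, n = 4 each). The ordering of the transfections also differed between genes. Under LPS the group means of Lcn2 ran from miR-29a through scramble and miR-7a to miR-146a, where the ranges of scramble and miR-7a overlapped. Those of Saa3 and Hp ran from miR-29a through miR-146a and scramble to miR-7a. Scramble and miR-146a overlapped for both genes, as did miR-29a and miR-146a for Saa3 and scramble and miR-7a for Hp. Under vehicle miR-29a had the highest mean and miR-7a the lowest for Hp, Lbp and Agt. For Hp the lowest place of miR-7a rested on the shallow replicates 2 to 4. Replicate 1 read 4.16 CPM, above the scramble mean of 3.30 CPM. The vehicle ranges of scramble and miR-146a overlapped for all 3 genes, and those of miR-146a and miR-7a overlapped for Hp and Agt.

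With scramble, the comparison the genes were picked on, LPS libraries of Lcn2 stood at least 705-fold above vehicle, taking 3 counts over the 4 vehicle libraries as the floor. The fitted log2 differences were 8.58 for Saa3, 3.12 for Hp, 1.55 for Lbp and -4.34 for Agt. In that comparison 18% of 12359 genes were called, and nothing is read from the members' place among them.

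Cells that received a mimic form separate libraries, and with each of the 3 mimics every LPS library held more Lcn2, Saa3 and Hp and less Agt than every vehicle library. A gene entered a test only if enough libraries reached a minimum level, 1.73 CPM with miR-7a, 1.58 CPM with miR-29a and 1.31 CPM with miR-146a. Of 15 pairings of a gene with a mimic, 4 held a gene that would have entered on either group alone: Saa3 with miR-29a and with miR-146a, and Hp and Lbp with miR-29a. In the other 11 the gene entered only through the group where it was higher. That leans towards a difference, so fitted differences are given there without a test. Over all genes, limma-voom (Benjamini-Hochberg adjusted p under 0.05 over all genes tested and a log2 fold change beyond 0.3 either way) called 26.6% with miR-29a, 6.80% with miR-7a and 4.51% with miR-146a.

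Saa3 rose 532-fold with miR-29a (log2 9.05 ± 0.41, SE, limma adjusted p = 4.5e-07) and 285-fold with miR-146a (8.16 ± 0.41, adjusted p = 1.9e-07). Hp rose 13.2-fold with miR-29a (log2 3.72 ± 0.58, SE, limma adjusted p = 0.000888). Lbp with miR-29a differed by 0.41 on the log2 scale (95% interval -0.32 to 1.15, limma adjusted p = 0.387), and its ranges overlapped.

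For the pairings without a test, the LPS level of Lcn2 stood at least 2098-fold above vehicle with miR-29a and at least 496-fold with miR-146a. With miR-7a, where vehicle held 1 count, the ratio was 701 (95% counting interval 126 to 27677). These bounds cover counting error only. The fitted level of Saa3 with miR-7a was 98.2-fold higher under LPS. That of Hp was 11.8-fold higher with miR-7a and 18-fold higher with miR-146a. Lbp was 6.33-fold higher with miR-7a (log2 2.66), without overlap, where vehicle held 3 counts in all. With miR-146a Lbp was 4.37-fold higher (2.13), with overlap. Agt, whose vehicle libraries let it in, was 7.84-fold lower with miR-7a, 70.6-fold lower with miR-29a and 7.24-fold lower with miR-146a. With replicate 1 as the only VEH_miR-7a library, the differences with miR-7a were 95.2-fold for Saa3, 3.42-fold for Hp and 8.07-fold for Lbp, all higher under LPS, and 7.77-fold lower for Agt. For Lcn2 the ratio was then 425 (95% counting interval 76.3 to 16800).

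**Figure D2:**
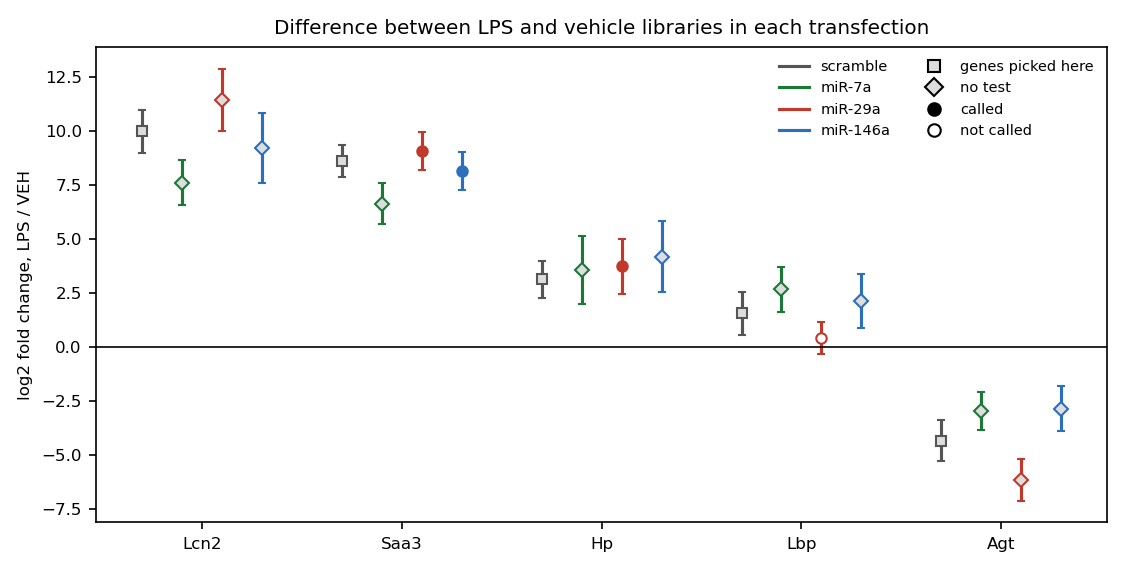
Log2 fold change of LPS over vehicle (y axis) for each gene (x axis) in the 4 transfections, with 95% intervals from limma. Grey squares are the scramble libraries on which the genes were picked and grey diamonds the 11 pairings without a test. Of the 4 circles, Lbp with miR-29a (0.41) is open because it missed the threshold and the others are filled. The Lcn2 points depend on the prior count, since 15 of 16 vehicle libraries held 0.

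Under LPS, miR-29a gave higher Lcn2, Saa3 and Hp than scramble, and miR-7a gave lower Saa3. These were 4 calls in 13 tests, since Agt entered only through the higher scramble libraries with miR-7a and miR-29a and is given there without a test. The 3 mimics share the LPS_scramble libraries, which were also part of the comparison the genes were picked on. A choice of genes for being high in these libraries leans towards lower values with a mimic, also for Saa3 with miR-7a, and the comparisons between mimics leave those libraries out. Over all genes 5.13% were called for miR-29a, 2.93% for miR-7a and 2.43% for miR-146a. With miR-29a Lcn2 was 2.83-fold higher (log2 1.5 ± 0.24, SE, limma adjusted p = 0.00764), Saa3 1.99-fold higher (0.99 ± 0.24, adjusted p = 0.0390) and Hp 4.74-fold higher (2.24 ± 0.42, adjusted p = 0.0135). Lbp differed by 0.92 on the log2 scale (95% interval 0.09 to 1.74, limma adjusted p = 0.187) and Agt by -0.16 (-1.20 to 0.88). The Saa3 call was lost without LPS_scramble replicate 1, 2 or 4 or without LPS_miR-29a replicate 1 or 3, where the log2 difference was 1.03, 0.91, 0.89, 0.72 and 1.00 (limma adjusted p = 0.0760, 0.0829, 0.120, 0.0673 and 0.0921). The Hp call was lost without LPS_scramble replicate 4 (2.08, limma adjusted p = 0.0625).

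With miR-7a, Saa3 was 2.26-fold lower than scramble (log2 -1.18 ± 0.18, SE, limma adjusted p = 0.00769), lower in 4 of 4 libraries than every scramble library. Other members differed by -0.33 for Lcn2 (95% interval -0.67 to 0.00), -0.71 for Hp (-1.24 to -0.18) and -1.14 for Lbp (-1.94 to -0.33), and none of these passed (limma adjusted p = 0.293, 0.147 and 0.127). Agt differed by -0.32 (-1.25 to 0.61). With miR-146a no member passed. The closest was Lcn2 at -0.75 (95% interval -1.17 to -0.33, limma adjusted p = 0.0661), while Saa3 differed by 0.19 (-0.23 to 0.61), Hp by 0.28 (-0.40 to 0.96), Lbp by 0.03 (-0.96 to 1.01) and Agt by 1.08 (-0.05 to 2.21). Same-numbered libraries deviated together in these 3 comparisons, so the replicate number was also fitted as a block. Blocked, 3 further tests passed, which makes 7 of 13: Lbp was lower with miR-7a (-1.26, limma adjusted p = 0.0402), Lbp was higher with miR-29a (0.73, adjusted p = 0.02) and Lcn2 was lower with miR-146a (-0.81, adjusted p = 0.00145). Of all genes the blocked fit called 9.09% for miR-7a, 10.2% for miR-29a and 10.3% for miR-146a.

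Compared with each other under LPS, the mimics gave 7 calls in 15 tests, all without the scramble libraries, although each mimic group enters 2 of the comparisons. Of all genes 3.62% were called between miR-29a and miR-7a, 12.1% between miR-29a and miR-146a and 6.30% between miR-7a and miR-146a. Against miR-7a, the miR-29a cells held 3.54-fold more Lcn2, 4.48-fold more Saa3, 7.66-fold more Hp and 4.06-fold more Lbp (limma adjusted p = 0.00111, 0.000695, 0.00451 and 0.00804). Agt differed by 0.15 on the log2 scale (95% interval -0.86 to 1.16). Against miR-146a they held 4.72-fold more Lcn2 (limma adjusted p = 0.000355) and 3.92-fold more Hp (adjusted p = 0.0203). The Hp call was lost without LPS_miR-29a replicate 3 (log2 1.84, limma adjusted p = 0.0582) or LPS_miR-146a replicate 2 (1.79, adjusted p = 0.0570). Saa3 was 2.61-fold lower with miR-7a than with miR-146a (limma adjusted p = 0.00256). Without calls, miR-29a and miR-146a differed by 0.80 in Saa3 (limma adjusted p = 0.0556), 0.92 in Lbp (adjusted p = 0.177) and -1.22 in Agt (adjusted p = 0.178). The numbers paired the libraries in the comparisons with miR-146a, and blocked fits added 4 calls, 11 in all. These were Saa3 (0.77, limma adjusted p = 0.000296) and Lbp (0.97, adjusted p = 0.00210) higher with miR-29a than with miR-146a, and Hp (-1.04, adjusted p = 0.0218) and Lbp (-1.20, adjusted p = 0.0248) lower with miR-7a than with miR-146a. The blocked fits called 25.7% and 20.8% of all genes.

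Under vehicle 11 pairings of a gene with a mimic could be fitted, and 4 of them entered only through the higher group and are given without a test: Hp with miR-29a, Saa3 with miR-29a and miR-146a, and Lbp with miR-146a. Of the other 7, limma called 0 (3 at an unadjusted p under 0.05), the edgeR quasi-likelihood test 2 and DESeq2 3. Lcn2 could not be tested in any vehicle comparison nor Lbp with miR-7a, since they did not pass the filter on low counts. Of all genes 0.271% were called for miR-7a, 0.00851% (1 gene) for miR-29a and 2.43% for miR-146a, all 3 sharing the VEH_scramble libraries. Those libraries were also part of the comparison the genes were picked on. A choice of genes for being low there leans towards higher values with a mimic. For Agt, which was high there, it leans towards lower values. No comparison made under vehicle leaves those libraries out. With miR-29a the log2 differences were 2.02 for Lbp (95% interval 1.30 to 2.74), 1.62 for Agt (0.96 to 2.27) and, without a test, 1.61 for Hp. For each of these genes the 4 libraries lay above the 4 scramble libraries. The limma adjusted p-values of Lbp and Agt were 0.0925 and 0.12. Agt with miR-7a differed by -1.71 (95% interval -2.62 to -0.80, limma adjusted p = 0.132), and by -1.73 with replicate 1 as the only VEH_miR-7a library. Saa3 differed by 0.48 with miR-29a, 0.76 with miR-7a and 0.60 with miR-146a, with intervals that all held 0.

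**Figure D3:**
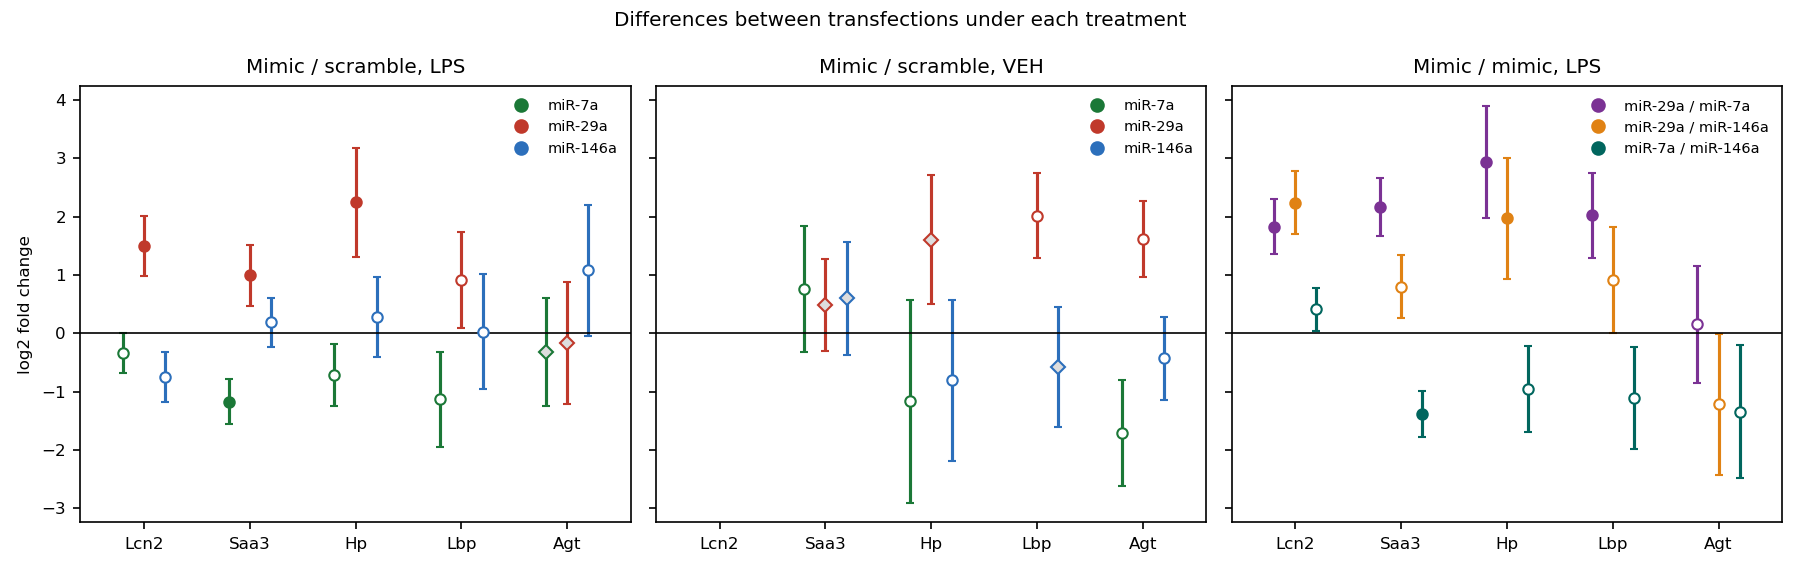
Log2 fold change (y axis) of each gene (x axis) between transfections, with 95% intervals from limma: mimic over scramble under LPS (left) and vehicle (middle), and mimic over mimic under LPS (right). Filled points passed the test without the block, open points did not and grey diamonds carry no test, and the largest filled value is Hp in miR-29a over miR-7a (2.94).

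The change of the LPS difference by a mimic was fitted as an interaction over 16 libraries for each mimic. Over all genes limma called 0.164% for miR-7a, 0.0161% for miR-29a and 0% for miR-146a (0 genes, 1386 at an unadjusted p under 0.05, and 23 by DESeq2). The interaction subtracts the scramble difference on which the genes were picked, which the choice made large, so its values are a description and nothing is read from their sign. With miR-7a they were, on the log2 scale, -2.29 for Lcn2, -1.91 for Saa3, 0.34 for Hp, 1.22 for Lbp and 1.40 for Agt. With miR-29a they were 1.47 for Lcn2, 0.49 for Saa3, 0.61 for Hp, -1.12 for Lbp and -1.80 for Agt, and with miR-146a -0.78, -0.42, 1.03, 0.59 and 1.48 in that order. The 95% interval was -3.88 to -0.69 for Lcn2 and -3.10 to -0.71 for Saa3 with miR-7a, and -3.23 to -0.37 for Agt with miR-29a. These intervals carry the choice too, so whether they hold 0 is no test. Of the 15 interactions of the members, limma called 0. The Lcn2 values depend on the prior count, and with 1 VEH_miR-7a library the miR-7a values were -1.89 for Lcn2, -2.004 for Saa3, -1.36 for Hp, 1.46 for Lbp and 1.40 for Agt. Whether the LPS difference of Lbp differed between the mimics was not tested.

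The members moved with each other to different degrees from library to library. Within the 16 LPS libraries Pearson's r of log2 CPM was 0.890 for Saa3 and Hp, 0.876 for Lcn2 and Hp, 0.858 for Hp and Lbp and 0.673 for Lcn2 and Saa3. Agt had r = 0.554 with Lbp, 0.390 with Saa3, 0.295 with Hp and 0.05 with Lcn2 there. Within the 16 vehicle libraries Lbp and Agt had r = 0.877, Hp and Lbp 0.762 and Hp and Agt 0.735, while Saa3 was near 0 with Hp (0.07). These values are a description over 4 groups each, in which libraries share transfection, replicate and depth.

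**Figure D4:**
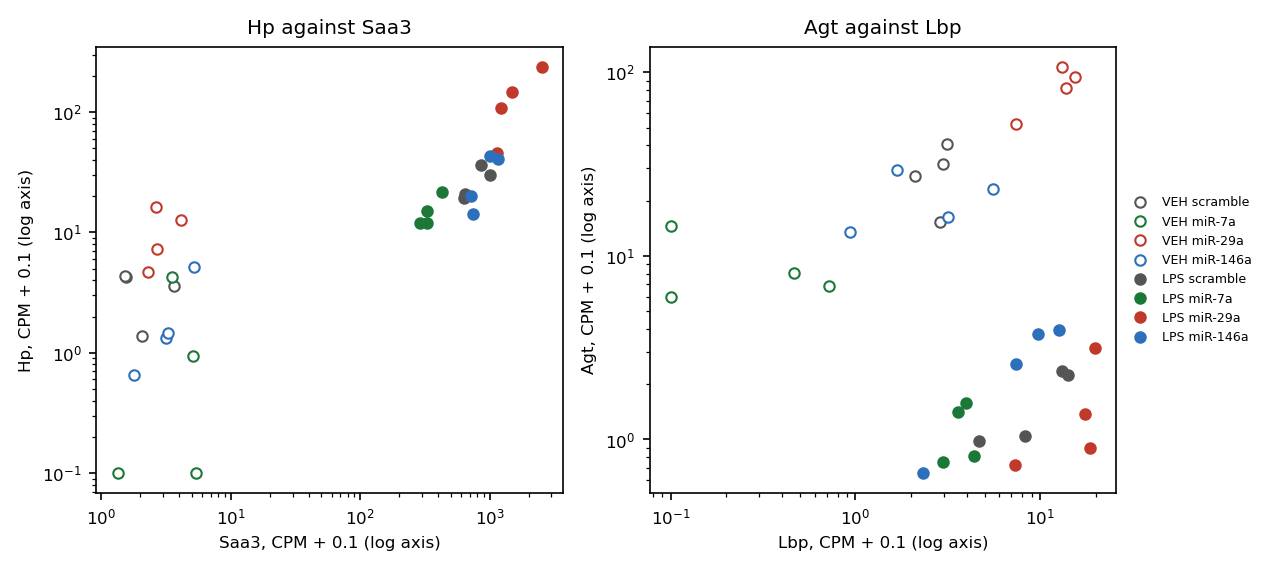
CPM + 0.1 of Hp against Saa3 (left) and of Agt against Lbp (right) in the 32 libraries, both axes log scaled, open points vehicle and filled points LPS. Hp and Saa3 follow each other among LPS libraries (r = 0.890 for log2 CPM, n = 16), and Agt and Lbp do so among vehicle libraries (r = 0.877, n = 16).

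The genes whose log2 CPM followed each member most closely over the 32 libraries were sought among 12479 genes, with the members left out. Over these libraries Lcn2 and Saa3 had r = 0.988 with each other, above all genes named for either. Hp and Lbp had r = 0.812, above the last gene named for Lbp (Gcm2, 0.800). For Lcn2 they were Irg1 (r = 0.963), which makes the antibacterial metabolite itaconate, then Fcgr1, Oasl2, Osbpl3 and Marco. For Saa3 they were Marco (0.97), a scavenger receptor of macrophages, then Cd38, Irg1, Osbpl3 and H2-T24. For Hp the closest was Cp (0.888), which encodes the copper protein ceruloplasmin, itself an acute-phase protein, and within the 16 LPS libraries its r with Hp was 0.934. Cntnap1, Reps1, Phf11a and Tagap followed. For Lbp they were Des (0.883), Sept6, Bach2os, Sigirr and Gcm2, and for Agt they were Asb10 (0.947), Sardh, Cbfa2t3, Slc13a3 and Rasgrp4. These correlations include the step between vehicle and LPS. Within the 16 LPS libraries r for the 5 genes named ran from -0.279 (Marco) to 0.716 (Osbpl3) for Lcn2 and from 0.0066 (H2-T24) to 0.58 (Osbpl3) for Saa3. There it ran from 0.413 to 0.934 for Hp, from 0.401 to 0.802 for Lbp and from 0.53 to 0.854 for Agt.

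Of 43 other acute-phase genes, most of them liver products, 8 or 9 could be tested for LPS against vehicle in mimic cells, leaving out genes that entered only through their higher group. With miR-7a 4 of 8 rose and 1 fell, where 6.80% of all genes were called (median log2 difference 0.91, against 0.02 over all genes). With miR-29a 3 of 9 rose and 1 fell, where 26.6% of all genes were called (0.16 against -0.01), and with miR-146a 3 of 8 rose and 1 fell, where 4.51% were called (0.88 against -0.02). The complement gene C3 (log2 1.52, 1.30 and 2.15 with miR-7a, miR-29a and miR-146a), Il1rn, the natural blocker of the IL-1 receptor (2.70, 2.65 and 1.80), and Cp (1.17, 1.96 and 1.94) rose. Cfb, another complement gene, and Serpina3g, a protease inhibitor, entered only through their LPS libraries. Their fitted differences, without a test, were 7.34 for Cfb with miR-7a, 6.75 for Cfb with miR-29a, 3.92 for Serpina3g with miR-29a and 2.71 for Serpina3g with miR-146a. Trf, which encodes the iron carrier transferrin, whose serum level drops in the acute phase, fell with all 3 mimics (-0.73, -0.77 and -0.97). Under LPS miR-7a gave lower Cp (-1.21) and Mt1, a metal-binding metallothionein (-1.20), and higher C3 (0.87) and Il1rn (0.78) than scramble, 4 of 11 genes, where 2.93% of all genes were called. No gene of this list was called for miR-29a (0 of 11) or miR-146a (0 of 11) under LPS, where 5.13% and 2.43% of all genes were. With the replicate block, where 9.09%, 10.2% and 10.3% of all genes were called, 7 of 11 were called with miR-7a, 3 of 11 with miR-29a (Cp higher at 0.86, C3 and C4b lower at -0.46 and -0.41) and 3 of 11 with miR-146a (Cp and Il1rn lower at -0.38 and -0.47, C4b higher at 0.41). Under vehicle C3 alone was called, higher with miR-7a (1.83). With replicate 1 as the only VEH_miR-7a library that value was 2.14, and the LPS differences with miR-7a were 7.76 for Cfb, 2.55 for Il1rn, 1.22 for C3, 1.07 for Cp and -0.77 for Trf.

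Among 27 genes for the cytokines, receptors and transcription factors that switch on acute-phase genes, 19 were tested for LPS against vehicle with each mimic, on the same terms. With miR-29a 9 rose and 5 fell, with miR-146a 4 rose and with miR-7a 2 rose and 1 fell, where 26.6%, 4.51% and 6.80% of all genes were called. With the replicate block 10 rose and 5 fell with miR-29a, where 37.0% of all genes were called. Stat3 rose with all 3 (0.54 with miR-29a, 0.86 with miR-7a and 0.71 with miR-146a, log2). Il1a, an IL-1 cytokine, rose with miR-7a (2.58) and miR-146a (1.46). Those that fell were, with miR-29a, the IL-6 receptor genes Il6ra (-1.35) and Il6st (-0.51), the cytokine gene Osm (-1.02), Cebpa (-1.11) and the NF-kappaB subunit gene Rela (-0.85), and with miR-7a Il6ra (-1.07). Socs3, the inhibitor that STAT3 induces, rose with miR-29a (1.64) and miR-146a (1.43), and Bcl3, a partner of NF-kappaB, rose with miR-29a (2.67). Without a test, since they entered only through their LPS libraries, Il1a differed by 3.36 with miR-29a and Bcl3 by 1.95 with miR-146a. Compared with scramble under LPS, Tnf (1.01) and Jak2 (0.56) were higher with miR-29a, Cebpb was lower with miR-7a (-0.84) and Socs3 was lower with miR-146a (-0.68), 4 calls among the 22 genes tested with each mimic, where 5.13%, 2.93% and 2.43% of all genes were called for miR-29a, miR-7a and miR-146a. Blocked, the calls were 5, 6 and 3 of 22 in the same order, where 10.2%, 9.09% and 10.3% of all genes were called. Among them Nfkbia (0.51) and Nfkbiz (0.52) were higher with miR-29a, and Relb (-0.78) and Nfkbiz (-0.58) were lower with miR-7a. With replicate 1 as the only VEH_miR-7a library the LPS differences with miR-7a were 3.01 for Il1a and 0.89 for Stat3. None of these genes was called under vehicle.

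The direct partners of the 5 proteins were followed in the same way. With miR-29a, where 26.6% of all genes were called for LPS against vehicle, the calls were 1 of 6 for partners of lipocalin-2, 2 of 8 for the LPS-binding protein, 3 of 5 for haptoglobin, 3 of 5 for the renin-angiotensin system and 1 of 4 for receptors of serum amyloid A. Each of these lists gave at most 1 call with miR-7a or miR-146a in that comparison. With miR-29a the block, which called 37.0% of all genes, gave 1 of 6, 4 of 8, 4 of 5, 3 of 5 and 3 of 4 in the same order. Nothing particular to a list is read from so few genes. Fth1, an iron-storage ferritin chain and the iron side of lipocalin-2 biology, rose with all 3 mimics under LPS (1.47, 1.39 and 1.46, log2), 1 of 6 genes tested in its list. Of 8 tested partners of the LPS-binding protein, Cd14 rose with miR-29a (0.97) and miR-146a (0.87), Tlr4 rose with miR-29a (0.51), and none was called with miR-7a. Of 5 tested partners of haptoglobin, Hmox1, which breaks down haem, rose with miR-29a (1.04) and miR-146a (1.12), and with miR-29a the haemopexin receptor Lrp1 (-1.31) and Itgam (-0.38) fell. Of 5 to 7 tested genes of the renin-angiotensin system, Ace fell with miR-29a (-2.05) and miR-146a (-1.18). Anpep, an angiotensin-trimming peptidase, fell with miR-29a (-0.71), where Atp6ap2, the prorenin receptor, rose (0.64). Of 4 or 5 tested receptors of serum amyloid A, Scarb1 fell with miR-7a (-0.72) and Tlr4 rose with miR-29a as given. With replicate 1 as the only VEH_miR-7a library, the miR-7a values of Fth1 and Scarb1 were 1.09 and -0.84. Under LPS, Hmox1 (-1.28) and Cd14 (-0.72) were lower, and Anpep (0.90) and Ace (0.87) higher, with miR-7a than with scramble. These were 1 of 5 partners of haptoglobin, 1 of 8 of the LPS-binding protein and 2 of 7 renin-angiotensin genes, where 2.93% of all genes were called. There Lrp1 (-0.63) and the bile-pigment enzyme Blvra (-0.64) were lower with miR-29a, 2 of 5 partners of haptoglobin where 5.13% of all genes were called. The iron exporter Slc40a1 (1.05) and Anpep (0.68) were higher with miR-146a, 1 of 6 and 1 of 7 genes of their lists where 2.43% of all genes were called. In the blocked fits the partner lists of lipocalin-2, the LPS-binding protein, haptoglobin, the renin-angiotensin system and serum amyloid A gave 2 of 6, 3 of 8, 2 of 5, 4 of 7 and 1 of 5 calls with miR-7a. They gave 0 of 5, 2 of 8, 4 of 5, 1 of 6 and 2 of 5 with miR-29a. The counts for miR-146a were 2 of 6, 1 of 8, 1 of 5, 3 of 7 and 0 of 5. These fits compared a mimic with scramble under LPS. They called 10.2% of all genes in the miR-29a fit, 10.3% in the miR-146a fit and 9.09% in the miR-7a fit.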

How the data were processed

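The authors depleted ribosomal RNA from total RNA, built CORALL libraries, sequenced them and ran the nf-core rnaseq workflow on GRCm38, and the deposited table holds the resulting estimated counts per gene (expected counts with decimals, per the values) for all 32 libraries. Their processing notes name limma and edgeR, without versions. The deposited table had lost its decimal marks: of 109458 values of 20000 or more, 0.0155% end in 0 and 43.1% end in 001 or 999. For each value above 0 the most probable reading was taken from its digits and from the level of the gene in the group, the condition and the table (t density with 7 degrees of freedom, replicate SD 0.4 log2, prior shares 0.01, 0.09 and 0.9 for 1, 2 and 3 decimals). Of 590874 values above 0, 28.6% were given decimals and 1.53% were uncertain (posterior under 0.9). The lowest posterior of a value of the 5 genes was 0.993. This model replaced a first version after a complete pass of the tests, because whole values of well-expressed genes had been read as fractional.

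Libraries were grouped by their labels, and no library was left out. Each pair of groups was fitted with limma-voom (limma 3.58.1, edgeR 4.0.16, R 4.3.3) after filterByExpr and TMM. The study names filterByExpr, TMM, a log transformation and a limma/edgeR model, and does not name voom. A gene was left out of a fit where any of its values there was uncertain. p-values were adjusted over all genes tested (Benjamini-Hochberg), and a call needed an adjusted p under 0.05 and a log2 fold change beyond 0.3. DESeq2 (1.42.0) and the edgeR quasi-likelihood test, on rounded counts, were alternatives, with other normalization, filters, restoration, 1 fit over all libraries and single libraries left out. Same-numbered libraries were taken as paired where every pair's deviations from the group means correlated above 0.1, in 7 of 13 comparisons: LPS against vehicle with scramble and miR-29a, the 3 mimics against scramble under LPS, and miR-146a against both other mimics. Depth sets the precision: 3 counts over the 4 VEH_scramble libraries are 0.134 CPM, and bounds and intervals from counts cover counting error only. CPM used TMM library sizes.

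The members, gene lists and tests were chosen with earlier results of these data known. Genes most like a member were the 5 with the highest correlation among genes that are not members. List examples were the genes with the lowest adjusted p, and the other list genes named were chosen after their values were seen. In data simulated for miR-29a against scramble under LPS over 45706 genes, 99.95% of certain values were restored to the true value. Of 13684 genes tested, 99% of those changed 4-fold and 36.7% of those changed 2-fold were called, with 9 false calls in 144.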

Additional observations from a re-analysis of the deposited data

Results flagged for a closer look

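Of 37 groups of 4 libraries checked over the 5 genes, 1 held a library far from the others. This was Lcn2 in VEH_miR-7a, where replicate 1 read 0.181 CPM from a single count and the other 3 libraries held 0. A lone count beside 3 libraries at 0 always meets the criterion, so the rate of about 1 in 20 groups that chance gives does not apply to it.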

How the results depend on the processing

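For LPS against vehicle in mimic cells no count of member calls is given, since 11 of 15 pairings entered only through the higher group. Against scramble under LPS the count of member calls was 4 (3 to 4 with single libraries left out), 7 by DESeq2 and 7 with the replicate block. Under vehicle it was 0 (0 to 1), 1 by limma-trend, 2 by edgeR, 4 by DESeq2, 1 in the fit over 32 libraries and 4 with the replicate block (Agt with miR-7a, and Agt, Lbp and Hp with miR-29a), counts that include 4 pairings without a test, among them Hp with miR-29a, and where the numbers do not pair the libraries by the rule used. The mimic comparisons gave 7 (6 to 10) and 11 with the block. The interaction, which holds the difference the genes were picked on and is no test of them, gave 0 (0 to 0) and 1 by DESeq2. In the comparisons without pairing the lowest correlation of a same-numbered pair lay between -0.077 and 0.092, and only for LPS against vehicle with miR-146a did 4 of 4 libraries correlate best with their own number. Where the numbers pair the libraries, the block changed no member call beyond those given in the report. Of the log2 values of single genes, 1417 kept direction and side of the threshold, 46 gained a call, 14 lost it, 21 changed sign and 3 moved otherwise.

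None of the values that changed sign was called. With single libraries left out, Agt in miR-29a ranged from -0.47 to 0.12 against scramble and from -0.15 to 0.37 against miR-7a under LPS. Lbp in miR-146a against scramble under LPS became -0.059 without the filter, -0.43 by limma-trend, -0.21 by edgeR, -0.27 by DESeq2 and -0.34 with the replicate block, and ranged from -0.41 to 0.31 with single libraries left out. Without the 3 VEH_miR-7a libraries rich in structural RNA, a setting chosen after seeing the data that leaves 1 library assumed to vary like the other groups, Hp in miR-7a against scramble under vehicle became 0.62 and its interaction -1.36. That interaction also became -0.27 by edgeR and -0.10 by DESeq2, and ranged from -0.35 to 1.45 with single libraries left out. The Lbp interaction with miR-146a became -0.20 by limma-trend and -0.11 by DESeq2. The cause was not tested.

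Counts over all genes moved more. Against scramble under LPS they were, in the order miR-7a, miR-29a, miR-146a, 383, 686 and 308, 1190, 1359 and 1308 with the block, and 812, 1083 and 676 by DESeq2, and without LPS_scramble replicate 4, the deepest library, 67, 205 and 32. Under vehicle they were 30, 1 and 288, 348, 61 and 904 with the block, 269, 103 and 1302 by DESeq2, and 58, 3 and 372 by edgeR. The fit over 32 libraries gave 177, 77 and 1588. Without VEH_miR-7a replicate 1 the first was 267, and without VEH_miR-146a replicate 3 the last was 0, and 1249 without VEH_scramble replicate 1. For LPS against vehicle with miR-7a, 807 became 1725 with the block, 1287 by DESeq2 and 445 without VEH_miR-7a replicate 3. With miR-146a, 547 became 836, 841 and, without VEH_miR-146a replicate 3, 279, and 891 in the fit over 32 libraries. Between mimics (miR-29a against miR-7a, miR-29a against miR-146a, miR-7a against miR-146a), 469, 1527 and 793 became 1184, 3236 and 2614 with the block and 891, 2065 and 1363 by DESeq2, 879, 2209 and 1456 in the fit over 32 libraries, and 205, 735 and 194 without LPS_miR-7a replicate 3, LPS_miR-146a replicate 3 and LPS_miR-7a replicate 3. The interaction counts 20, 2 and 0 became 92, 19 and 23 by DESeq2 and 43, 16 and 0 with the block. The first was 145 without VEH_miR-7a replicate 1 and the last 70 without VEH_scramble replicate 1. For LPS against vehicle with scramble, 2222 became 1125 without LPS_scramble replicate 4.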
